A study of Caenorhabditis elegans with 2 samples.

Results

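The 9 genes described here encode parts of the machinery that copies DNA: rpa-1 and rpa-2, named for replication protein A, pcn-1, which encodes the sliding clamp PCNA, and mcm-2 to mcm-7, the 6 subunits of the replicative helicase. They are 9 of 19973 protein-coding genes on the 6 chromosomes. The genes were chosen with peak values of these data known, because rpa-2 stood among the strongest promoter peaks, so every peak value and count of these genes is a description and was not tested. For each gene, peaks were collected whose summit, the position of highest enrichment, lay in the gene or within 2000 bp upstream of its annotated 5′ end. In the conservative list of peaks past the authors' threshold, 2 of the 9 genes, rpa-2 and pcn-1, held a summit, and 7.83% of all protein-coding genes did. None of the 6 helicase genes held one, a count near that share and not a result about them.

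The peaks come from chromatin immunoprecipitation and sequencing of whole Caenorhabditis elegans larvae of stage L4, aged 50 hours, in 2 biological replicates that form 1 group. All animals were of strain OP351: they lacked a working unc-119 gene (allele tm4063) and carried the transgene array wgIs351, which holds unc-119(+) together with nhr-42 joined to TY1, EGFP and 3xFLAG tags. The antibody recognised GFP, so the material precipitated is that of the tagged NHR-42, a nuclear hormone receptor made from the transgene and not from the native locus. Populations were synchronised by starving L1 larvae after bleaching the adults. No precipitation from untagged animals was analysed here, and in whole animals a peak in many cells and a stronger peak in few cells cannot be told apart.

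As background, replication begins when the MCM proteins, a ring of related subunits, are loaded on origins as an inactive helicase. Once activated, the ring unwinds the double helix, replication protein A coats the single strands, and PCNA encircles the DNA and tethers polymerases to it. In animals many genes of this machinery carry binding sites of E2F factors, which couple their transcription to the cell cycle. In the L4 stage of C. elegans the germ line proliferates, and some somatic lineages still divide.

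The sequences at 2 promoter summits of these genes are shown because the peaks differ in outcome. The first is the single-copy sequence around the summit of pcn-1, whose peak passed the threshold in every list. The second surrounds the promoter summit of the helicase gene mcm-2, whose peak passed it in none. Both run 5′ to 3′ on the strand of the gene over 201 bases of build ce11 (RefSeq WBcel235), centred on the summit, at IV:4049605-4049805 and II:12006829-12007029. Capitals mark the only match to an E2F-type octamer, which begins 188 bp upstream of the 5′ end of pcn-1. The window of mcm-2 held no match.
pcn-1 summit: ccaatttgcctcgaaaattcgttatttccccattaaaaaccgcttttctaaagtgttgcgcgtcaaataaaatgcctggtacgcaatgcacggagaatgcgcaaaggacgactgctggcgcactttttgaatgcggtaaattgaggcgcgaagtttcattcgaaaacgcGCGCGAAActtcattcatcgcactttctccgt
mcm-2 summit: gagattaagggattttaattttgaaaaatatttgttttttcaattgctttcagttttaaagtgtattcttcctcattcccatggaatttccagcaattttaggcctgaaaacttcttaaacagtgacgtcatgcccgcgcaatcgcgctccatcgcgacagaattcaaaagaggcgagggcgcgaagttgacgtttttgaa

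The octamers searched were TTTCCCGC, TTTGGCGC, TTTCGCGC and TTTGCCGC, on both strands. In the stretch from 250 bp before to 50 bp after the 5′ end, at least 1 of them stood in 8 of the 9 genes, with mcm-2 the exception, against 936 of 19973 promoters of all protein-coding genes (4.69%). The matches of rpa-1, mcm-3, mcm-5, mcm-6 and mcm-7, whose peaks stayed below every threshold, are printed with 16 bases to either side, on the strand of the gene and with the octamer in capitals, so that their sequence can be set beside their low signal. The first match of rpa-1 begins 140 bp and the second 107 bp upstream of the 5′ end, and those of mcm-3, mcm-5 and mcm-7 begin 144, 194 and 148 bp upstream. Of the pair in mcm-6 the first begins 247 bp and the second 120 bp upstream.
rpa-1 first octamer, II:7664426-7664465: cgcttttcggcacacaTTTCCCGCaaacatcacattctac
rpa-1 second octamer, II:7664459-7664498: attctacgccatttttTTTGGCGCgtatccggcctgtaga
mcm-3 octamer, V:15059720-15059759: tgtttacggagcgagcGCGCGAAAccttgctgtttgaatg
mcm-5 octamer, III:4291437-4291476: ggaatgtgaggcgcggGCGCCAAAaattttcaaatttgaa
mcm-6 first octamer, III:9794104-9794143: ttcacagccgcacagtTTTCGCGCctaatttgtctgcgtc
mcm-6 second octamer, III:9794231-9794270: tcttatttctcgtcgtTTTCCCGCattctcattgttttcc
mcm-7 octamer, V:4347002-4347041: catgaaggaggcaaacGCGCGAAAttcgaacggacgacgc

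Most of these matches lay away from the strongest summits. Only mcm-4 of the 9 genes had an octamer within 50 bp of its strongest summit, at 7 bp, and 62 of 1627 conservative peaks (3.81%) and 2.18% of the ranked peaks below the threshold had one. In pcn-1 the octamer lay 72 bp from the thresholded summit, and in rpa-2 it lay 420 bp from it, nearer to the gene. In mcm-6 the octamer 120 bp upstream lay 5 bp from a summit whose signal was 13.3, and in mcm-7 the octamer lay 13 bp from a summit of signal 38.0. The octamers of rpa-1 lay 509 and 476 bp from the nearest summit of the ranked series list, and those of mcm-3 and mcm-5 lay 141 and 263 bp from theirs. A match of letters is not a binding site, and these positions were not tested.

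The signal of each peak is the authors' own value, without a stated unit, and the score is a scaled irreproducible discovery rate (IDR), their measure of how reproducible a peak is, with a cap of 1000. Every peak in the thresholded lists has a score of 830 or more, that is, an IDR of 0.01 or lower. Each replicate has its own lists, 875 thresholded and 63908 ranked peaks in replicate 1, and 702 and 73476 in replicate 2. For both replicates combined there are 1627 conservative thresholded peaks and 1789 in the other thresholded list, and ranked lists of 105959 and 106547 that include weak peaks. The ranked list behind the conservative one is used unless another is named. It holds 1693 peaks with a score of 830 or more, against the 1627 conservative peaks, so the score alone does not define the conservative list. The highest signal is 3332 in this ranked list and 1343 in the conservative one. What set the peaks left out apart was not tested. A replicate's signal comes from its own list and is on the scale of that library, so it is not comparable in size with the series value. Read depth is unknown from peak lists.

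In the conservative list, 1564 of the 19973 protein-coding genes (7.83%) held a summit under the same rule. The 9 genes contributed rpa-2 and pcn-1. The other series list held summits of 3 of the 9 genes, namely rpa-2, pcn-1 and mcm-4, against 8.68% of all genes. The list of replicate 1 and that of replicate 2 each held rpa-2 and pcn-1, against 4.81% and 3.8% of all genes. With each summit given to the protein-coding gene with the nearest 5′ end, the conservative list again held rpa-2 and pcn-1, against 6.67% of all genes. Since the genes were chosen on these values, nothing is read from their shares.

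**Figure D1:**
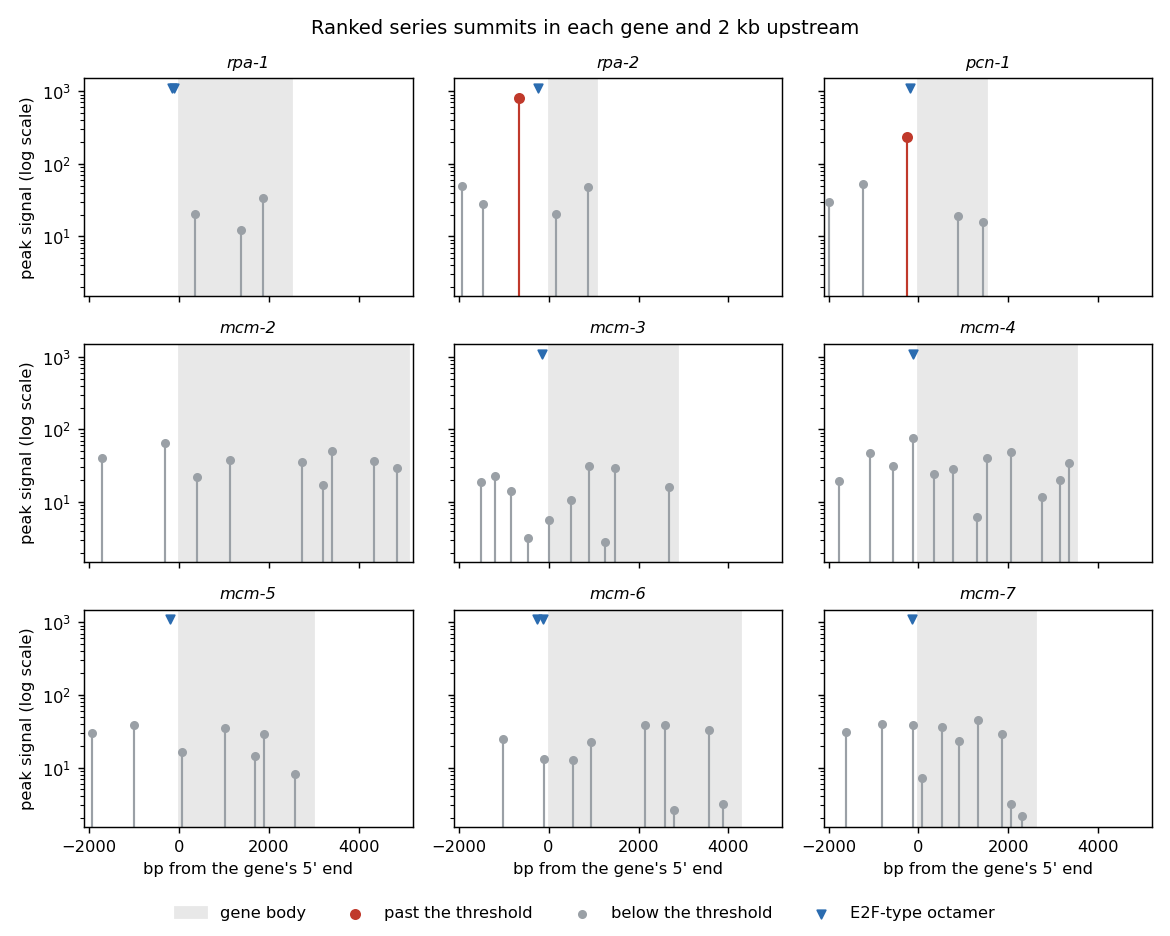
Peak signal (log scale) of every summit in the ranked series list against the distance in bp from the 5′ end of each gene, with the gene body shaded, summits past the threshold in red, others in grey, and E2F-type octamers as triangles. The 2 red summits, at rpa-2 (signal 795) and pcn-1 (232), rise above the other 68, and the octamer of pcn-1 stands next to its summit while that of rpa-2 stands apart from it.

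Replication protein A binds single-stranded DNA, and rpa-2 held by far the strongest peak of the 9 genes. The gene (WBGene00019767, I:4770292-4771358, forward strand) had a peak at I:4769526-4769772, 247 bp wide, with its summit 647 bp upstream of the 5′ end. Its signal was 795 in the series, 469 in replicate 1 and 329 in replicate 2, with the capped score of 1000 in all 3 lists. The replicate summits lay within 2 bp of the series summit. Over all conservative peaks with a peak in both replicates (n = 1606), the ratio of the replicate 1 signal to the replicate 2 signal had a median of 0.983 and ran from 0.577 to 1.77 between the 5th and the 95th percentile. The ratio at rpa-2 was 1.43, inside that spread. The peak was the third highest in signal of 742 conservative promoter peaks, and only 2 of 19973 protein-coding genes held a stronger summit.

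No other protein-coding gene shared the peak of rpa-2. The nearest coding gene upstream, kin-35, is transcribed away from it and lies 4978 bp off. A long non-coding RNA gene, M04F3.7 (I:4768331-4769063, reverse strand), lies nearer. The peak stood between the 5′ ends of M04F3.7 and rpa-2, with its summit somewhat closer to that of M04F3.7. Which of these genes the peak belongs to was not tested. The next strongest summit of rpa-2 had a signal of 50.3, at 1913 bp upstream, so the strongest was 15.8 times as high. That weaker summit and another of signal 28.2 fell within M04F3.7. A summit of 48.4 lay inside rpa-2, 867 bp from its 5′ end, and the summit nearest to that end, 161 bp inside the gene, had a signal of 20.7 and the score of 45 that is the lowest in the list.

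The sequence under the rpa-2 summit was not unique. Of the 128 stretches of 24 bases within 75 bp of the summit, 36 occurred once in the genome and 92 more often, with a median of 3 copies and a maximum of 9. They matched 8 other places, of which 4 held a conservative peak of their own. The place with most matches (91), at IV:4725551-4725688 near K08F11.1, carried a signal of 1028. A place in F28F8.7 (V:15590326-15590463) with 62 matches carried 245. The place in rcor-1 (I:22300-22437) with 87 matches carried 114.6, and a place near Y54G2A.19 with 9 matches carried 137. At the other 4 places the ranked signals were 42.5, 34.0, 36.0 and 25.1. Signal therefore differed widely between places with many shared stretches. How reads that match several places were assigned is not given in the sources used here, and the part of repeated sequence in the rpa-2 value was not tested.

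The partner gene rpa-1 (WBGene00017546, II:7664582-7667110, forward strand), which carries the name of the large subunit, had a far lower signal. Its strongest summit, 1871 bp inside the gene in a coding exon, had a signal of 34.3 and a score of 240 in the series. Replicate 2 had a signal of 19.6 there and replicate 1 had no overlapping peak. The other summits of rpa-1 had signals of 20.1 and 12.1, both within the gene, and the ranked series list held none upstream of it. The ranked list of replicate 1 did hold 3 upstream summits, the highest of them at 1327 bp with a signal of 19.4 and a score of 58, and that of replicate 2 held none. The downstream gene lir-2 and the upstream gene F18A1.7 share these summits by the same rule.

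The clamp gene pcn-1 (WBGene00003955, IV:4047937-4049448, reverse strand) had its peak at IV:4049688-4049780, only 93 bp wide, with the summit 257 bp upstream of the 5′ end. Its signal was 232 in the series, 90.2 in replicate 1 and 139.7 in replicate 2, with a score of 1000 in each. Unlike rpa-2, the signal was higher in replicate 2, and the ratio of replicate 1 to replicate 2 was 0.646, also inside the spread of the conservative peaks. The summits of the replicates lay 2 and 3 bp from that of the series. By signal the peak was number 242 of 875 in the list of replicate 1 and number 79 of 702 in that of replicate 2, and number 120 of 1627 in the conservative list.

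All 128 stretches under the pcn-1 summit were unique in the genome. The peak stood in the 557 bp between pcn-1 and wrt-5, a gene of the hedgehog-related family that lies upstream on the same strand, and no other coding gene shared it. The next strongest summit, in an intron of wrt-5, had a signal of 52.2, and the peak of pcn-1 was 4.44 times as high. Narrow peaks were few and strong in this list: 127 of 1627 conservative peaks were narrower than 300 bp, with a median signal of 304, against 93.5 for the 1493 that were 300 bp wide. The peaks of rpa-2 and pcn-1 are both among the narrow ones.

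**Figure D2:**
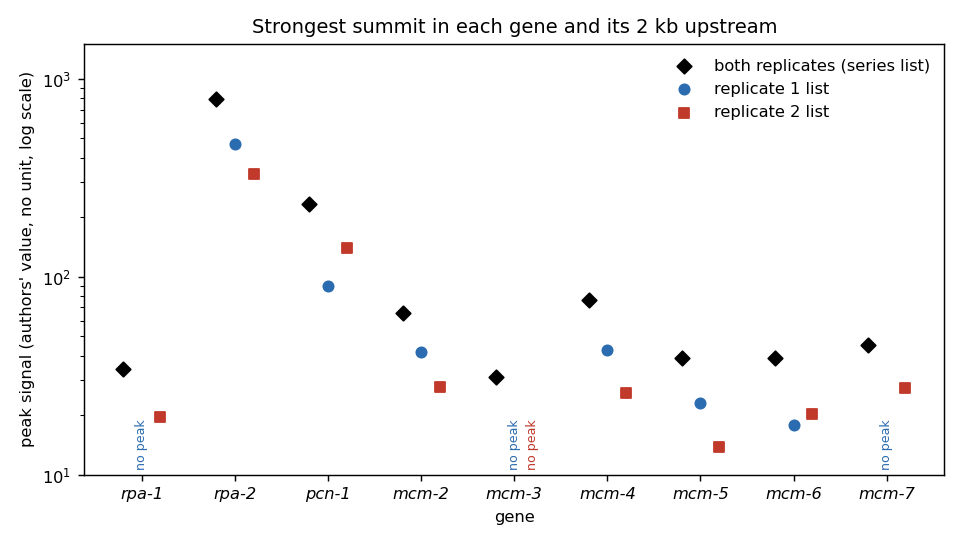
Signal (log scale) of the strongest summit of each gene in the series list, with the signal of the overlapping ranked peak in replicate 1 and in replicate 2, and "no peak" where a replicate had none there. The replicates order rpa-2 and pcn-1 above the 7 other genes, and mcm-3 had no peak of either replicate at its strongest summit.

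The helicase genes together held 57 ranked summits, all below the conservative threshold, with signals of 2.12 to 76.5 and a median of 28.3. The highest belonged to mcm-4 (WBGene00003156, I:2318291-2321817, reverse strand), 121 bp upstream of its 5′ end. Its signal was 76.5 in the series, 42.8 in replicate 1 and 25.9 in replicate 2, and the replicate summits lay within 3 bp of that of the series. The score of this one peak was 545 in the ranked list behind the conservative peaks and 835 in the other ranked list, just past the threshold of 830. The replicate lists gave it scores of 754 and 181. The call of mcm-4 thus rested on the choice of list. The window within 50 bp of this summit had a GC content of 56.4%, the highest of the 9 strongest summits, which began at 38.6%, against medians of 49.5% for conservative peaks and 39.6% for ranked peaks below the threshold. The gene Y39G10AR.32, on the same strand 207 bp upstream, shared 3 weaker summits of mcm-4 but not this one.

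The next was mcm-2 (WBGene00003154, II:12001509-12006625, reverse strand), with a summit 304 bp upstream. Its signal was 65.4 in the series, 41.8 in replicate 1 and 27.8 in replicate 2. Its scores were 616 in the conservative ranked list and 694 in the other, the values nearest below the threshold among the 9 genes. The divergent globin gene glb-29 begins 2446 bp away and shared only a weaker summit of 40.0. Of the 9 summits of mcm-2, 7 lay inside this long gene, the highest of them at 50.7.

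In the remaining helicase genes no summit stood out. The strongest exceeded the next by a factor of 1.14 in mcm-7, 1.10 in mcm-5, 1.05 in mcm-3 and 1.02 in mcm-6, against 1.57 in mcm-4 and 1.29 in mcm-2. The strongest summit of mcm-7 (WBGene00003159, V:4347166-4349768, forward strand) had a signal of 45.4 in a coding exon, with 27.5 in replicate 2 and no peak in replicate 1. That of mcm-5 (WBGene00003157, III:4288264-4291266, reverse strand) had 39.1 in the series, 23.0 in replicate 1 and 13.8 in replicate 2, and lay in a coding exon of nth-1, which encodes a DNA repair glycosylase. That of mcm-6 (WBGene00003158, III:9794367-9798644, forward strand) had 38.9 in the series, 17.7 in replicate 1 and 20.4 in replicate 2. It lay in an intron of mcm-6 that also holds a coding exon of srxa-10, a serpentine receptor gene on the opposite strand. A second 5′ end is annotated inside mcm-6. The summit lay within the promoter window of that end, which runs from 1000 bp upstream to 200 bp downstream. The strongest summit of mcm-3 (WBGene00003155, V:15056719-15059599, reverse strand) had 31.2, in a coding exon, and neither replicate had a peak there.

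Many of these summits also counted for neighbouring genes. Of all 70 summits of the 9 genes, 37 also lay in a protein-coding neighbour or within 2000 bp upstream of one, 15 such neighbours in all, and of the 23 upstream summits 17 did. The share of all ranked summits that lie so was not computed, so nothing is read from these counts. C25D7.15 is divergent from mcm-3 and begins 208 bp away, and it shared 9 of the 10 summits of mcm-3. The summits of mcm-6 were all shared, with srxa-10, R10E11.9 or ZK632.2. Those of mcm-7 were shared in 6 of 10 cases with hpo-18 or figl-1, and those of mcm-5 in 4 of 7 with nth-1, R10E4.6, R10E4.7 or R10E4.3. The thresholded peaks of rpa-2 and pcn-1, and the promoter summits of mcm-4 and mcm-2, were not shared with any protein-coding gene.

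Across the 70 summits the signal ran from 2.12 to 795 with a median of 28.5, and 25 had the lowest score of 45. Upstream lay 23 and in the genes 47, of which 38 were in coding exons, 6 in introns, 1 in a 5′ UTR and 2 in 3′ UTRs. The highest signal in a coding exon was 50.7. A ranked peak of both replicates overlapped 27 of them, one of replicate 1 only 14, one of replicate 2 only 16, and none of either 13. The same replicate peak could count for more than 1 neighbouring series summit. The shares over all ranked series peaks were not computed, so nothing is read from these counts.

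Against all protein-coding genes, the highest signals of the 9 genes ran from near the top to rank 14305. Their median was 45.4, and that of the 17073 genes with any ranked summit was 44.8, with a 90th percentile of 75.4. By this measure rpa-2 was number 3 and pcn-1 number 148 of 19973 genes. The helicase genes mcm-4 and mcm-2 stood in the top 8.17% and 13.3% in the series list, followed by mcm-7 at 41.3%, mcm-5 at 55.8% and mcm-6 at 56.3%, and then rpa-1 at 66.0% and mcm-3 at 71.6%. Within replicate 1, mcm-4 stood in the top 7.63% with a highest signal of 42.8 and mcm-2 in the top 8.21% with 41.8. Within replicate 2, the highest signal of mcm-4 was 27.3 (top 40.3%), below mcm-2 (36.6, top 14.9%) and mcm-7 (28.3, top 36.4%). These replicate 2 values came from other summits than the strongest of the series list. They lay 582 bp upstream of mcm-4, 3328 bp inside mcm-2 and 791 bp upstream of mcm-7. Within 500 bp of the 5′ end, replicate 2 placed mcm-4 in the top 16.02% (25.9) and mcm-2 in the top 13.08% (27.8). In replicate 1 that window placed them in the top 3.49% and 3.71%. From mcm-7 down, with 45.4, the steps in the order of the series list were uneven. The genes mcm-5 and mcm-6 differed by little, with 39.1 and 38.9, and rpa-1 and mcm-3 followed with 34.3 and 31.2. A gene with a longer window can hold more summits, and the 9 genes held 3 to 12 against a median of 5.

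**Figure D3:**
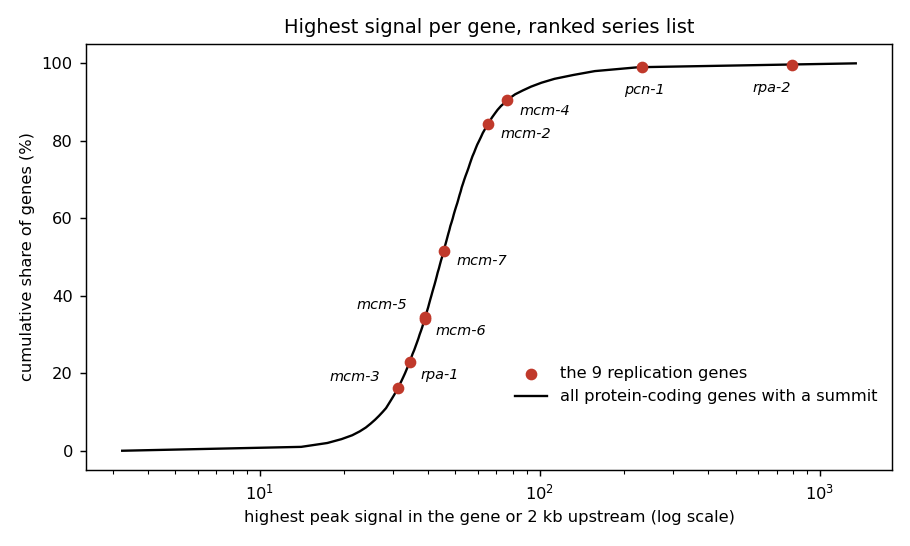
Cumulative share of genes (%) against the highest signal in the gene or 2000 bp upstream (log scale), for the 9 replication genes (red) and for all protein-coding genes with a summit (line). The genes rpa-2 and pcn-1 lie on the flat upper end, mcm-4 and mcm-2 on its shoulder, and the other 5 between 31.2 and 45.4, near or below the median of 44.8.

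Restricting the summits to 500 bp on either side of the 5′ end changed the order, as rpa-2 then had 20.7 in place of 795. The genes mcm-2, mcm-4 and mcm-6 have 2 annotated 5′ ends each, and the outermost is the one used here and for all distances. In that window pcn-1 kept 232, mcm-4 76.5 and mcm-2 65.4, against a median of 31.3 for the genes with a summit there. The values were 38.0 for mcm-7, 20.1 for rpa-1, 16.3 for mcm-5, 13.3 for mcm-6 and 10.5 for mcm-3. The narrow window thus kept the promoter summits of 4 of the 9 genes above that median.

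The peaks with replicate signals most like those of rpa-2, by Euclidean distance of log2 signal over the 2 replicates among 728 other conservative promoter peaks, were those of rpl-3 (distance 0.329), of K01G5.10 and tasp-1 (0.392), and of Y17G9B.5 and rpl-20 (0.445). The genes rpl-3 and rpl-20 encode ribosomal proteins. Among those most like pcn-1 were the peaks of ddp-1 and ttc-7 (0.229) and of gst-27 (0.274), named for glutathione S-transferase. Their series signals were 212 and 211, beside the 232 of pcn-1, and those of the genes like rpa-2 were 937, 685 and 642.

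The other genes of the pathway were taken from a list of 51 names by role, of which 48 matched the annotation. The names were chosen by role and not by value, but with earlier results of these data known. Their counts are a description and were not tested. Of the 48 genes, 11 (22.9%) held a conservative summit, against 7.83% of all protein-coding genes. The median of the highest signals of the 48 genes was 55.4, against 44.8. By role, none of 8 licensing genes (the origin recognition complex, cdc-6, cdt-1 and gmn-1) and none of 5 clamp-loading genes held one, which for so few genes is near the share of 7.83%. Clamp loaders place PCNA on DNA, and the highest signal of their genes was 70.2. The fork genes held 5 of 7: clsp-1, a claspin gene, at 240.9, ctf-4 at 166, tim-1 at 150.2, top-2, a topoisomerase II gene, at 123, and top-3 at 83.0. Of 4 chromatin assembly genes lin-53 and rba-1, which encode histone chaperones of one family, shared a single peak of 257. The rest were pri-2 (85.8) and div-1 (69.5) of primase and polymerase alpha, psf-2 (85.5) of the GINS complex and dna-2 (75.7), a nuclease of the lagging strand. None of the 5 nucleotide supply genes had one, although rnr-2 (75.5) appeared in the other series list, as did pole-2 (104.9), which was also in the list of replicate 2 at 68.6. By contrast, div-1 and top-3 were absent from the other series list and from the lists of both replicates. The other series list held 4 of the 7 fork genes, against 8.68% of all genes.

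Most of these genes shared their peak with a protein-coding neighbour, and rpa-2 and pcn-1 did not. How many of all conservative peaks are shared was not computed, so nothing is read from this difference. The peak of clsp-1 also counted for eef-2 and that of ctf-4 for eef-1G, both translation elongation factor genes, and that of top-2 for the nucleoporin gene npp-3. The peaks of tim-1, dna-2, pri-2 and psf-2 were shared with Y75B8A.23, patr-1, W02D9.2 and zipt-1, and that of lin-53 and rba-1 also with nra-2. Outside the conservative list, pole-2 shared its peak with snrp-3 and rnr-2 with C03C10.7. Only the summits of div-1 and top-3, inside the genes, were unshared. With each summit given to the nearest 5′ end, 4 of the 48 genes (8.33%) remained, namely div-1, dna-2, psf-2 and top-3, against 6.67% of all genes. The list of replicate 1 held 7 of the 48 (14.6%), against 4.81% of all genes. That of replicate 2 held 5 (10.4%), against 3.8%. Both replicate lists held 4 of the 48, clsp-1, tim-1, lin-53 and rba-1, with lin-53 and rba-1 there by the same peak. The share of all genes held in both lists was not computed, so nothing is read from this count.

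**Figure D4:**
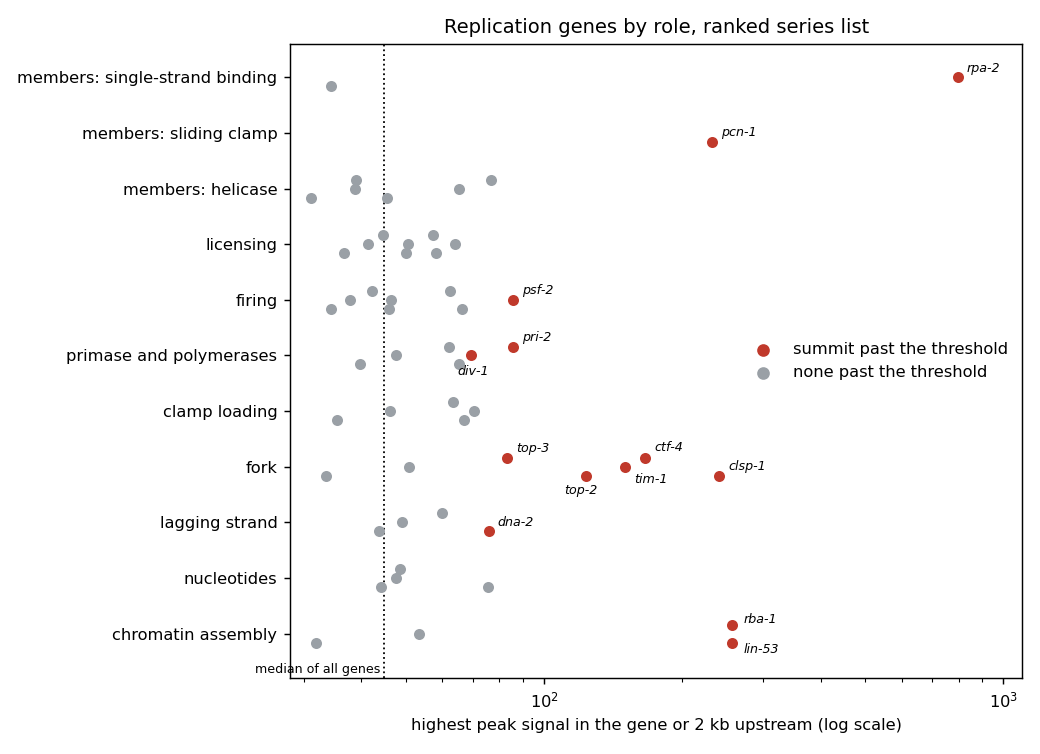
Highest signal (log scale) in each gene or 2000 bp upstream in the ranked series list, for the 9 genes (upper 3 lines) and the other replication genes by role, with genes that held a conservative summit in red and the median of all genes dotted. The fork line holds 5 red points of 7, and the helicase, licensing and clamp-loading lines hold none, where 7.83% of all genes hold a conservative summit.

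E2F-type octamers stood in the promoters of 18 of these 48 genes (37.5%), against 8 of the 9. Among the 48 they were in 5 of the 11 with a conservative summit and in 13 of the 37 without one, and among all protein-coding genes in 6.46% of the 1564 with a conservative summit. Of the other motifs searched at the strongest summits of the 9 genes, both strands and within 50 bp, the half-sites AGGTCA and AGTTCA were in none. They stood in 2.89% and 4.12% of conservative peaks and in 2.70% and 6.16% of ranked peaks below the threshold, to which 7 of the 9 strongest summits belong. GAGAGA and CCGCCC were also in none, against 15.4% and 6.45% of conservative peaks and 6.08% and 2.51% of those below the threshold. TATAAA was in rpa-1 only, against 3.69% and 7.34%. No match says only that these letters are not in the window.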

How the data were processed

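Whole L4 animals of 1 strain were profiled in 2 biological replicates, and no test was made, since the members and lists were chosen with earlier results of these data known. Build ce11 underlies the 8 deposited peak lists, per the labels. The sources used here name no caller or aligner. Sonicated fragments measured 200 to 800 bp, per the labels. The deposited score is a scaled IDR, the deposited signal is the authors' own value per peak with no stated unit, and the global IDR is deposited as −log10.

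Summits were placed in genes of Ensembl release 115 with Python 3.11.15, numpy 2.4.6, pandas 2.3.3 and matplotlib 3.10.9, and the steps were tested on simulated peaks. Sequences are from RefSeq WBcel235, whose names and lengths match ce11. Genes named are the 9 members, genes sharing their peaks, other replication genes in any thresholded list, and the 3 peaks most like each thresholded promoter peak, of which 1 is not reported here. Genes next to these peaks or to copies of the rpa-2 summit sequence, kin-35 and the licensing genes were named outside this rule, after their values were seen. Alternatives covered the other lists, stricter thresholds, windows, overlap and repeated summits; 1, the 500 bp window, was added after seeing the data.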

Additional observations from a re-analysis of the deposited data

How the results depend on the processing

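No paired analysis was possible because both replicates form 1 group. Of the 9 genes, the conservative list held rpa-2 and pcn-1, and the count of 2 became 1 with only 500 bp upstream, which leaves out rpa-2 at 647 bp, and 1 without summits of repeated sequence, which also leaves out rpa-2. It was 3 in the other series list and 2 in every other alternative, either replicate's list included. The count of other replication genes, 11 of 48, was 5 to 7 with each replicate left out, 6 in the 814 conservative peaks of highest signal, 7 in the promoter window and 4 with the nearest 5′ end; the count of all genes, 1564, was 758 to 961, 930, 884 and 1333 in the same settings. These settings use fewer peaks or give a summit to fewer genes by construction. With the nearest 5′ end the share went from 22.9% to 8.33% for the 48 genes and from 7.83% to 6.67% for all genes. The cause of this difference was not tested, and no other cause of the lower counts was. The strongest signal of all 9 genes was lower in each single replicate's list, which is on its own scale. In the window of 500 bp around the 5′ end 6 of the 9 values differed. In the promoter window mcm-3 had 14.1 in place of 31.2 and mcm-7 had 39.7 in place of 45.4, and rpa-1 has no summit there. With 1 group and no read counts, neither depth nor background in untagged animals can be judged.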
